A study of Mus musculus with 17 samples.

Results

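The genes described here burn fatty acids, make ketone bodies or are switched by PPARα, and there are 40 of them among the 55536 genes in the deposited tables. They were chosen by name for mitochondrial and peroxisomal β-oxidation, ketogenesis and known PPARα targets, with no threshold on their values. Earlier results of these data were known when the choice was made. All 40 were found by symbol and all 40 passed the filter on low counts, which kept 14393 genes. RNA-seq was run on hepatocytes that collagenase perfusion had freed from the livers of 3-month-old C57BL/6J mice with the genotype ApcDHep, which lack Apc, a brake on β-catenin signalling, in hepatocytes. All of the mice had carried SaCas9 constructs, delivered by the liver-directed viral vector AAV8, for 1 month and had been given tamoxifen (2 mg, 7 days). The 6 WRE-edited libraries (condition DLK1DWRE) came from livers edited at a site that β-catenin binds, upstream of the imprinted DLK1/DIO3 genes, and the 5 Rosa26-edited libraries (condition ROSA26) from livers edited at Rosa26, a commonly used neutral site. Loss of Apc, the vector, the nuclease and tamoxifen are thus common to both groups, and no library here comes from a liver with intact Apc or without editing.

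Fatty acids enter the mitochondrion as carnitine esters, made by CPT1A, and are shortened there in repeated rounds of β-oxidation that deliver electrons to the respiratory chain and acetyl-CoA to ketone body synthesis. Peroxisomes shorten very long, branched and dicarboxylic fatty acids by a parallel set of enzymes. In hepatocytes the nuclear receptor PPARα senses fatty acids and, paired with RXR, switches on many of the enzymes of both routes during fasting, and in liver β-catenin activity and fatty acid use are known to vary along the lobule.

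Each library had 20727036 to 38935135 expected counts, and the 40 genes together took 0.514% to 0.721% of them. The library names in the labels place them in 3 runs: r770 held WRE-edited 1 to 3 and Rosa26-edited 1 to 3, r595 held WRE-edited 6 and Rosa26-edited 4 and 5, and r711 held WRE-edited 4 and 5 with no control. The 3 libraries of r595 stood apart, with 2.29% to 3.00% of counts from mitochondrial ribosomal RNA against 19.02% to 29.09% in the other 8. Fold changes below compare WRE-edited with Rosa26-edited libraries in a fit that includes the run, so they rest on r770 and r595. CPM (counts scaled to a common library size with TMM factors) are given for all 11 libraries. The library names of WRE-edited 4 and 6 carry the same number, and which libraries stem from separate animals is not in the labels. The p-values therefore speak only of the spread among the libraries, which may be technical. As a check of the edit, the locus transcript Rian stood at 78.4, 48.7, 55.7, 113, 99.0 and 51.2 CPM in WRE-edited 1 to 6 and at 405, 257, 221, 361 and 171 CPM in Rosa26-edited 1 to 5, the 1 gene that edgeR called over all genes (log2 fold change -2.30, adjusted p = 0.0188). Another locus transcript, Meg3, had a log2 fold change of -2.23 (edgeR, adjusted p = 0.266). Its groups overlapped, with WRE-edited 4 at 83.9 CPM and Rosa26-edited 2 at 79.8 CPM. The 10 hepatocyte markers summed to 46991 to 63659 CPM in every library, while 5 adipocyte markers summed to 0 to 0.122 CPM with Lep at 0 throughout. In bulk RNA, fewer cells of a type and less RNA per cell cannot be told apart.

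Most of the 40 genes had slightly higher levels in the WRE-edited libraries, and none passed the test over all genes. The log2 fold change was above 0 for 38 of the 40, against 51.7% of all genes tested, with a median of 0.28 against 0.01 for all genes. It ran from -0.33 ± 0.32 (SE) for Ehhadh to 0.99 ± 0.42 for Angptl4. At an adjusted p under 0.05 edgeR called 0 of the 40 higher and 0 lower, beside 0% and 0.00695% of all genes. At an unadjusted p under 0.05, 13 were higher and 0 lower, beside 4.95% and 5.14% of all genes. DESeq2 called 1 of the 40 higher (Creb3l3), beside 0.123% of all genes. Every WRE-edited library lay above every Rosa26-edited library for 3 of the 40, Creb3l3, Angptl4 and Decr2, beside 0.153% of all genes. That number was 6 without WRE-edited 1, when Acaa1a, Acot8 and Acsl1 joined them, beside 0.528% of all genes, and 3 or 4 without any other single library. The count of 13 was 24 without WRE-edited 1 (7.39% of all genes), 4 without WRE-edited 3 (2.64%), 1 without WRE-edited 6 (1.71%) and 8 without Rosa26-edited 5 (3.76%). Without WRE-edited 6, which takes r595 out of the comparison, the median was 0.15. The genes of a pathway share their regulators, so their counts are not 40 independent observations.

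**Figure D1:**
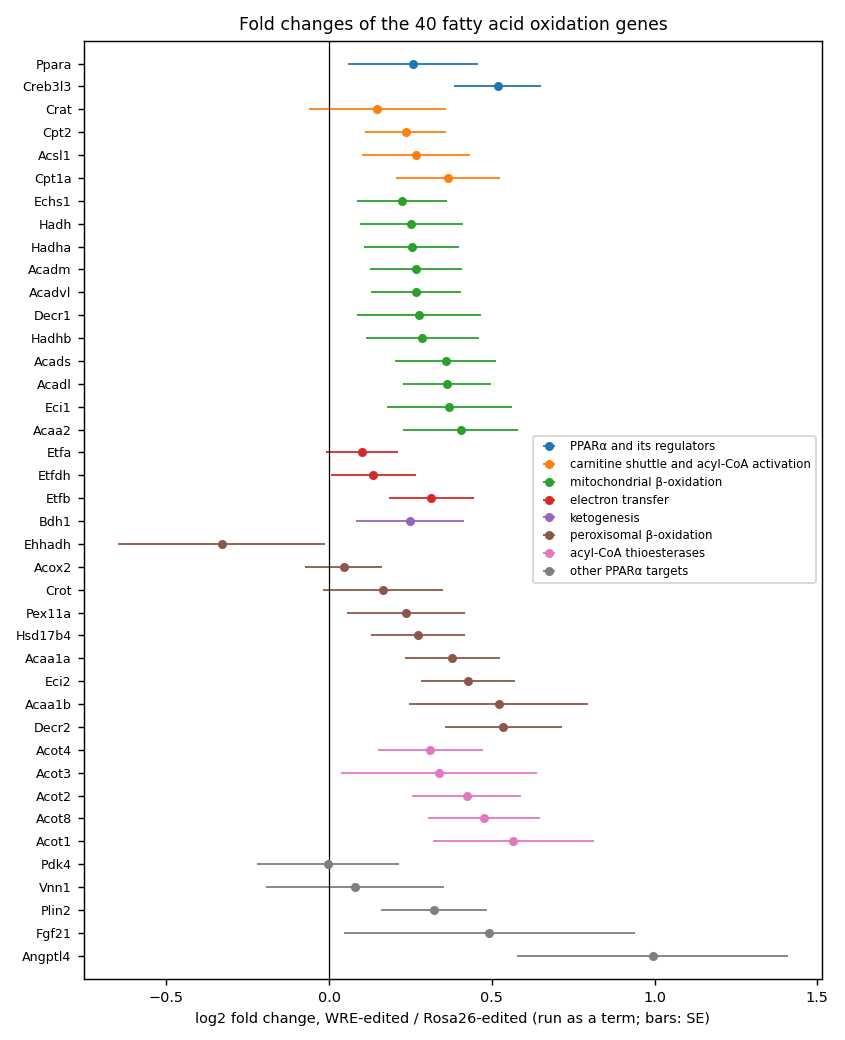
Log2 fold change of each of the 40 genes, WRE-edited over Rosa26-edited in a fit that includes the run (horizontal axis; points are estimates and bars are SE from edgeR), with genes grouped and coloured by their place in the pathway. Points lie right of 0 for 38 genes, and Ehhadh (-0.33) and Angptl4 (0.99) are the ends of the range.

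**Figure D2:**
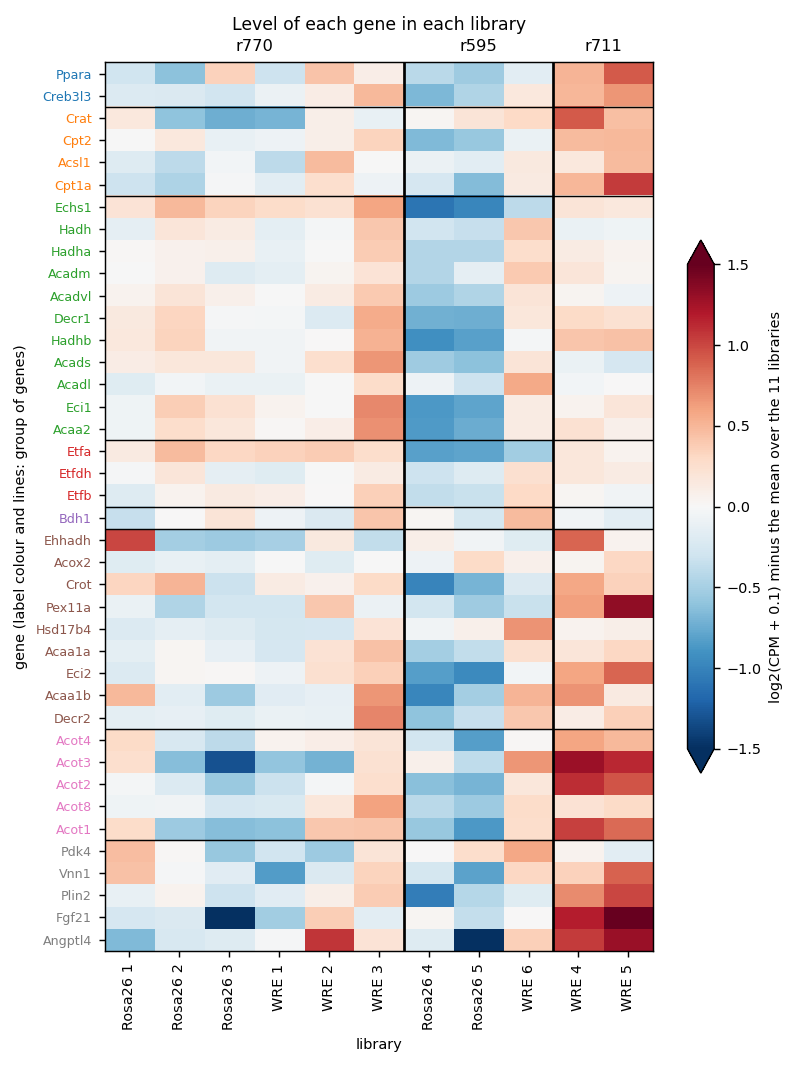
Level of each gene in each of the 11 libraries, as log2(CPM + 0.1) minus the gene's mean over the libraries (colour; values beyond 1.5 in size are drawn in the end colours), with libraries in columns by run and genes in rows by group. In r595 the Rosa26-edited libraries 4 and 5 are pale to dark blue for most genes, and in r770 WRE-edited 3 is red for most.

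Ppara encodes the receptor PPARα itself, and Creb3l3 encodes CREBH, a membrane-bound liver transcription factor that is released during fasting and acts with PPARα on fatty acid oxidation and on Fgf21. Creb3l3 stood at 103, 118, 152, 154, 173 and 122 CPM in WRE-edited 1 to 6 and at 94.7, 93.7, 89.5, 68.3 and 80.0 CPM in Rosa26-edited 1 to 5. All 6 WRE-edited libraries lay above all 5 Rosa26-edited libraries, and this was so within r770 and within r595 as well. Creb3l3 averaged 137 ± 26.8 (SD, n = 6) in WRE-edited and 85.2 ± 11.1 CPM (SD, n = 5) in Rosa26-edited libraries, and the log2 fold change was 0.52 ± 0.13 (SE; edgeR, adjusted p = 0.361). DESeq2 gave 0.52 with an adjusted p of 0.0439, the 1 call among the 40 on which the tools differed. Without WRE-edited 3 and 6 the edgeR value was 0.25. WRE-edited 3 and 6 had the highest medians of the 40 genes against the controls of their own runs. Values without both, here and below, are therefore lowered by that choice. Ppara stood at 54.5, 90.9, 72.5, 96.4, 128 and 60.8 CPM in WRE-edited 1 to 6 and at 55.1, 44.3, 86.2, 51.1 and 46.7 CPM in Rosa26-edited 1 to 5. The ranges overlapped, since Rosa26-edited 3 was above WRE-edited 1, 3 and 6. Ppara had a log2 fold change of 0.26 ± 0.20 (edgeR, adjusted p = 0.656), with 0.26 within r770 and 0.31 within r595, and its highest levels were in the libraries of r711. It was 0.14, 0.14 and 0.47 without WRE-edited 2, Rosa26-edited 2 or Rosa26-edited 3.

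Creb3l3 is 1 of the 3 members whose groups did not overlap, and 1 of its promoter windows holds a close match to the PPARα repeat, so the 250 bases before 1 of its annotated starts are shown (RefSeq, GRCm38.p6, chr10:81092592-81092841, minus strand). Capitals mark the closest match in this window to the direct repeat that PPARα and RXR bind, 2 copies of AGGTCA in the same direction with 1 base between them:
Creb3l3 promoter: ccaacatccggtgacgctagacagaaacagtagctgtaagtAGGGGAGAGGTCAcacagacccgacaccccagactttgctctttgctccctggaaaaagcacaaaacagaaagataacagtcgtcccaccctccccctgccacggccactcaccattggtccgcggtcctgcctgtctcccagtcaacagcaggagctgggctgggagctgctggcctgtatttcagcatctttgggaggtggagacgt
The match differs from the repeat at 2 of the 12 compared bases and lies 209 to 197 bases before that start. This start is inside the gene (chr10:81084329-81098872), and the window of the gene's outer start held no match with so few mismatches. Of the other members whose groups did not overlap, Decr2 had a closest match with 5 mismatches and Angptl4 had no window.

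Entry of fatty acids into mitochondria is the step of Cpt1a, which makes the carnitine esters, and of Cpt2, which turns them back into acyl-CoA. Acsl1 activates fatty acids to acyl-CoA, and Crat handles short acyl groups. Cpt1a stood at 178, 238, 189, 283, 411 and 219 CPM in WRE-edited 1 to 6 and at 161, 145, 196, 167.7 and 127 CPM in Rosa26-edited 1 to 5. In the WRE-edited libraries Cpt1a was above the Rosa26-edited maximum in 4 of 6, and WRE-edited 1 and 3 lay inside the Rosa26-edited range. Cpt1a averaged 253 ± 86.0 (SD, n = 6) in WRE-edited and 159 ± 25.9 CPM (SD, n = 5) in Rosa26-edited libraries, with a log2 fold change of 0.37 ± 0.16 (edgeR, adjusted p = 0.471). It was 0.27 within r770 and 0.58 within r595. The other 3 genes had log2 fold changes of 0.27 (Acsl1), 0.23 (Cpt2) and 0.15 (Crat), none at an unadjusted p under 0.05 in edgeR. Over these 4 genes the median was 0.25, and 4 of 4 were above 0 within each of r770 and r595.

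Inside the mitochondrion, acyl-CoA dehydrogenases of decreasing chain length (Acadvl, Acadl, Acadm, Acads) take the first step. The trifunctional protein (Hadha, Hadhb), Echs1 and Hadh carry out hydration and the next oxidation, Acaa2 and HADHB cleave off acetyl-CoA, and Eci1 and Decr1 handle unsaturated fatty acids. All 11 genes had a fold change above 0, from 0.22 (Echs1) to 0.40 (Acaa2) on the log2 scale, with a median of 0.27. Without WRE-edited 6 the median of these 11 was 0.07, with 10 of 11 above 0. Acadl, Acads and Acaa2 had an unadjusted p under 0.05 in edgeR and none passed after adjustment. Acadl stood at 101, 108, 132, 105, 109 and 161 CPM in WRE-edited 1 to 6 and at 95.3, 105, 101, 103 and 87.4 CPM in Rosa26-edited 1 to 5. WRE-edited 6 and 3 were the highest libraries, and the other 4 WRE-edited libraries differed from the Rosa26-edited maximum by a few CPM. Acadl had a log2 fold change of 0.36 ± 0.14 (edgeR, adjusted p = 0.441), 0.17 within r770 and 0.76 within r595. It was 0.18 without WRE-edited 6 and 0.06 without WRE-edited 3 and 6.

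Acads stood at 64.5, 80.2, 107, 62.7, 56.4 and 76.6 CPM in WRE-edited 1 to 6 and at 72.5, 75.5, 75.2, 46.2 and 43.9 CPM in Rosa26-edited 1 to 5. WRE-edited 1, 4 and 5 lay inside the Rosa26-edited range, and WRE-edited 3 was the highest library. The log2 fold change of Acads was 0.36 ± 0.16 (edgeR, adjusted p = 0.469). Acaa2 stood at 480.2, 506, 759, 555, 499 and 514 CPM in WRE-edited 1 to 6 and at 452, 570.4, 534, 262 and 283 CPM in Rosa26-edited 1 to 5. WRE-edited 3 was the highest library and the other 5 WRE-edited libraries were all below Rosa26-edited 2, while both Rosa26-edited libraries of r595 were far below those of r770. The log2 fold change of Acaa2 was 0.40 ± 0.18 (edgeR, adjusted p = 0.471), with 0.14 within r770 and 0.92 within r595. Acadm, the medium-chain enzyme, is the classic gene of this group. Acadm stood at 170.1, 194.2, 219, 214, 195 and 247 CPM in WRE-edited 1 to 6 and at 188, 198, 165, 139.6 and 172 CPM in Rosa26-edited 1 to 5. WRE-edited 1, 2 and 5 lay within the Rosa26-edited range and WRE-edited 6 was the highest, with a log2 fold change of 0.27 ± 0.14 (edgeR, adjusted p = 0.532). Acaa2, Acadm and Acads had 0.17, 0.08 and 0.17 without WRE-edited 6, and -0.07, -0.01 and -0.04 with WRE-edited 3 and 6 left out.

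Electrons from these dehydrogenases pass to the electron transfer flavoprotein (Etfa, Etfb) and its quinone oxidoreductase (Etfdh). Etfb stood at 95.3, 89.5, 115, 90.7, 85.8 and 109 CPM in WRE-edited 1 to 6 and at 77.8, 92.3, 98.0, 68.8 and 70.7 CPM in Rosa26-edited 1 to 5. WRE-edited 3 and 6 were above the Rosa26-edited maximum and the remaining 4 were inside the range. The log2 fold change of Etfb was 0.31 ± 0.13 (edgeR, adjusted p = 0.46), with 0.16 within r770 and 0.65 within r595. It was 0.16 without WRE-edited 6 and 0.05 without WRE-edited 3 and 6. Etfdh had 0.14 and Etfa 0.10, neither with an unadjusted p under 0.05 in edgeR. Etfa shared the pattern of the mitochondrial enzymes in the controls, at 45.1 and 45.6 CPM in Rosa26-edited 4 and 5 against 86.8 to 109.8 CPM in Rosa26-edited 1 to 3.

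The peroxisomal group holds the side-chain oxidase Acox2, the bifunctional enzymes Ehhadh and Hsd17b4, the thiolases Acaa1a and Acaa1b, the auxiliary enzymes Eci2 and Decr2, the carnitine octanoyltransferase Crot and Pex11a, a factor of peroxisome division. Of these 9 genes 8 had a fold change above 0, with a median of 0.27, and Decr2, Eci2 and Acaa1a had an unadjusted p under 0.05 in edgeR. Decr2 stood at 71.7, 71.2, 128, 83.0, 98.5 and 102 CPM in WRE-edited 1 to 6 and at 69.6, 70.7, 68.1, 50.7 and 60.3 CPM in Rosa26-edited 1 to 5. The groups did not overlap, although WRE-edited 1 and 2 exceeded the highest Rosa26-edited library by a small margin. Decr2 averaged 92.4 ± 21.7 (SD, n = 6) in WRE-edited and 63.9 ± 8.41 CPM (SD, n = 5) in Rosa26-edited libraries, and the log2 fold change was 0.54 ± 0.18 (edgeR, adjusted p = 0.434). That of Decr2 was 0.35 without WRE-edited 3 and 0.04 without WRE-edited 3 and 6. Eci2 stood at 100.3, 125, 135, 159.5, 193.6 and 103 CPM in WRE-edited 1 to 6 and at 92.0, 108, 107, 59.5 and 54.7 CPM in Rosa26-edited 1 to 5. Within each of the runs r770 and r595 the WRE-edited mean was higher, by 0.22 and 0.85 on the log2 scale, and the levels of r711 were above every other library. Eci2 had a log2 fold change of 0.43 ± 0.15 (edgeR, adjusted p = 0.434), which was 0.23 without WRE-edited 6 and 0.14 without WRE-edited 3 and 6.

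Acaa1a stood at 95.5, 132, 153, 129, 141 and 134 CPM in WRE-edited 1 to 6 and at 103, 115, 104, 79.5 and 87.6 CPM in Rosa26-edited 1 to 5. WRE-edited 1 was the 1 WRE-edited library inside the Rosa26-edited range, and the other 5 were above it. The log2 fold change was 0.38 ± 0.15 (edgeR, adjusted p = 0.441), or 0.24 without WRE-edited 6 and 0.09 without WRE-edited 3 and 6. Acaa1b, the other thiolase, had 0.52 ± 0.28 (edgeR, adjusted p = 0.532); reads of these near-identical genes can be split by the counting, so each value alone is uncertain. Ehhadh stood at 319, 502, 349, 824, 468 and 399 CPM in WRE-edited 1 to 6 and at 905, 318, 309, 481 and 436 CPM in Rosa26-edited 1 to 5. Rosa26-edited 1 was the highest library and WRE-edited 4 came next, with the remaining 9 between 309 and 502 CPM and the groups overlapping. Ehhadh, a strongly PPARα-responsive gene in rodent liver, thus had a log2 fold change of -0.33 ± 0.32 (edgeR, adjusted p = 0.719), and 0.14 without Rosa26-edited 1. The remaining 4 genes had 0.27 (Hsd17b4), 0.24 (Pex11a), 0.17 (Crot) and 0.04 (Acox2).

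Acyl-CoA thioesterases release free fatty acids from acyl-CoA: Acot1 in the cytosol, Acot2 in mitochondria, and Acot3, Acot4 and Acot8 in peroxisomes. Acot1 to Acot4 lie next to each other on chromosome 12 (GRCm38.p6, chr12:83987861-84060400), 25.48 Mb from Meg3 of the edited locus. All 5 had a fold change above 0, with the highest median of the groups that hold more than 1 gene, 0.42 (0.24 without WRE-edited 6), and Acot1, Acot2 and Acot8 had an unadjusted p under 0.05 in edgeR. Without WRE-edited 6 the median of Ppara with Creb3l3 was higher than that of these 5, at 0.33. The same held without WRE-edited 3 and 6, at 0.24 against 0.11. Acot1 stood at 26.2, 53.5, 53.8, 82.0, 72.6 and 48.3 CPM in WRE-edited 1 to 6 and at 48.9, 27.7, 25.9, 27.1 and 22.2 CPM in Rosa26-edited 1 to 5. WRE-edited 1 and Rosa26-edited 1 each lay apart from the rest of their group, and WRE-edited 6 lay just below Rosa26-edited 1. Acot1 averaged 56.1 ± 19.5 (SD, n = 6) in WRE-edited and 30.4 ± 10.6 CPM (SD, n = 5) in Rosa26-edited libraries, with a log2 fold change of 0.57 ± 0.25 (edgeR, adjusted p = 0.473), or 0.23 without WRE-edited 3 and 6.

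Acot2 stood at 9.59, 11.7, 14.3, 25.9, 23.2 and 13.5 CPM in WRE-edited 1 to 6 and at 11.7, 10.4, 8.13, 7.73 and 7.38 CPM in Rosa26-edited 1 to 5. The libraries of r711 had the highest levels, and WRE-edited 1 and 2 were no higher than Rosa26-edited 1. Its log2 fold change was 0.42 ± 0.17 (edgeR, adjusted p = 0.443), and it was 0.23 without WRE-edited 6 and 0.08 without WRE-edited 3 and 6. Acot8 stood at 7.36, 9.75, 13.2, 10.1, 10.5 and 10.5 CPM in WRE-edited 1 to 6 and at 8.24, 8.33, 7.24, 6.51 and 5.88 CPM in Rosa26-edited 1 to 5. WRE-edited 1 lay inside the Rosa26-edited range and the other 5 WRE-edited libraries above it, with a log2 fold change of 0.48 ± 0.17 (edgeR, adjusted p = 0.441), or 0.11 without WRE-edited 3 and 6. Acot3 had 0.34 and Acot4 0.31. Reads from the near-identical copies Acot1 to Acot4 may have been divided between them, which leaves each value alone uncertain. Of the 40 genes, 20 overlap another annotated gene, among them Cpt1a, Acadl, Echs1, Eci2, Etfb, Acot8, Bdh1 and Plin2. Without a known strand setting, reads from bases that such a pair shares may not be told apart.

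Bdh1 encodes the mitochondrial enzyme that interconverts acetoacetate and β-hydroxybutyrate and is the ketone body gene of the 40. Bdh1 stood at 139, 126, 196, 141, 132 and 203 CPM in WRE-edited 1 to 6 and at 116, 147, 167.96, 150.3 and 122 CPM in Rosa26-edited 1 to 5. WRE-edited 3 and 6 were above the Rosa26-edited maximum and the other 4 were within the range. Its log2 fold change was 0.25 ± 0.17 (edgeR, adjusted p = 0.602), 0.09 within r770 and 0.59 within r595. It was 0.14 without WRE-edited 3, 0.10 without WRE-edited 6 and -0.12 without both.

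Of 5 further PPARα targets, Angptl4 encodes a secreted inhibitor of lipoprotein lipase, Plin2 a lipid droplet coat protein, Fgf21 a fasting hormone, Pdk4 a kinase that shuts pyruvate dehydrogenase and Vnn1 a pantetheinase. Angptl4 stood at 50.7, 108, 59.3, 107, 126 and 65.7 CPM in WRE-edited 1 to 6 and at 32.4, 43.6, 45.1, 45.1 and 8.01 CPM in Rosa26-edited 1 to 5. The groups did not overlap, and Rosa26-edited 5 was far below the rest. Angptl4 averaged 86.2 ± 31.4 (SD, n = 6) in WRE-edited and 34.8 ± 15.9 CPM (SD, n = 5) in Rosa26-edited libraries, and the log2 fold change of 0.99 ± 0.42 (edgeR, adjusted p = 0.469) was the highest of the 40. It was 0.78 within r770 and 1.78 within r595, where Rosa26-edited 5 is 1 of 2 controls. Plin2 stood at 279.9, 335, 412, 514, 632 and 279 CPM in WRE-edited 1 to 6 and at 293, 327, 254, 154 and 235 CPM in Rosa26-edited 1 to 5. WRE-edited 1 and 6 lay within the Rosa26-edited range, and the libraries of r711 were the highest. Plin2 had a log2 fold change of 0.32 ± 0.16 (edgeR, adjusted p = 0.525), or 0.08 without WRE-edited 3 and 6.

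Fgf21 stood at 0.549, 1.10, 0.736, 2.00, 3.27 and 0.833 CPM in WRE-edited 1 to 6 and at 0.684, 0.702, 0.143, 0.851 and 0.624 CPM in Rosa26-edited 1 to 5. These levels rest on 4 to 81 counts per library, and the libraries of r711 had the highest of them. The log2 fold change of Fgf21 was 0.49 ± 0.45 (edgeR, adjusted p = 0.7), and it was 0.20 without Rosa26-edited 3 and 0.27 without WRE-edited 2. Pdk4 stood at 44.2, 36.8, 61.4, 55.9, 48.0 and 80.2 CPM in WRE-edited 1 to 6 and at 74.2, 54.3, 36.2, 53.9 and 64.4 CPM in Rosa26-edited 1 to 5. The groups overlapped throughout, with a log2 fold change of -0.0041 ± 0.22 (edgeR, adjusted p = 0.996), from -0.21 without WRE-edited 6 to 0.21 without Rosa26-edited 1, and -0.44 without WRE-edited 3 and 6. Vnn1 stood at 13.2, 20.2, 29.7, 30.1, 43.5 and 29.4 CPM in WRE-edited 1 to 6 and at 31.9, 23.3, 21.0, 19.6 and 13.4 CPM in Rosa26-edited 1 to 5. Vnn1 had 0.08 ± 0.27 (edgeR, adjusted p = 0.925), with -0.33 within r770 and 0.85 within r595, and it was -0.05, -0.27 and -0.05 without WRE-edited 3, WRE-edited 6 or Rosa26-edited 5, and 0.29, 0.16 and 0.26 without WRE-edited 1, WRE-edited 2 or Rosa26-edited 1. Without WRE-edited 3 and 6 it was -0.60. Among well-known targets the estimates were thus 0.99 for Angptl4, 0.32 for Plin2, near 0 for Pdk4 and -0.33 for Ehhadh. None of them passed after adjustment, and differences between genes were not tested.

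**Figure D3:**
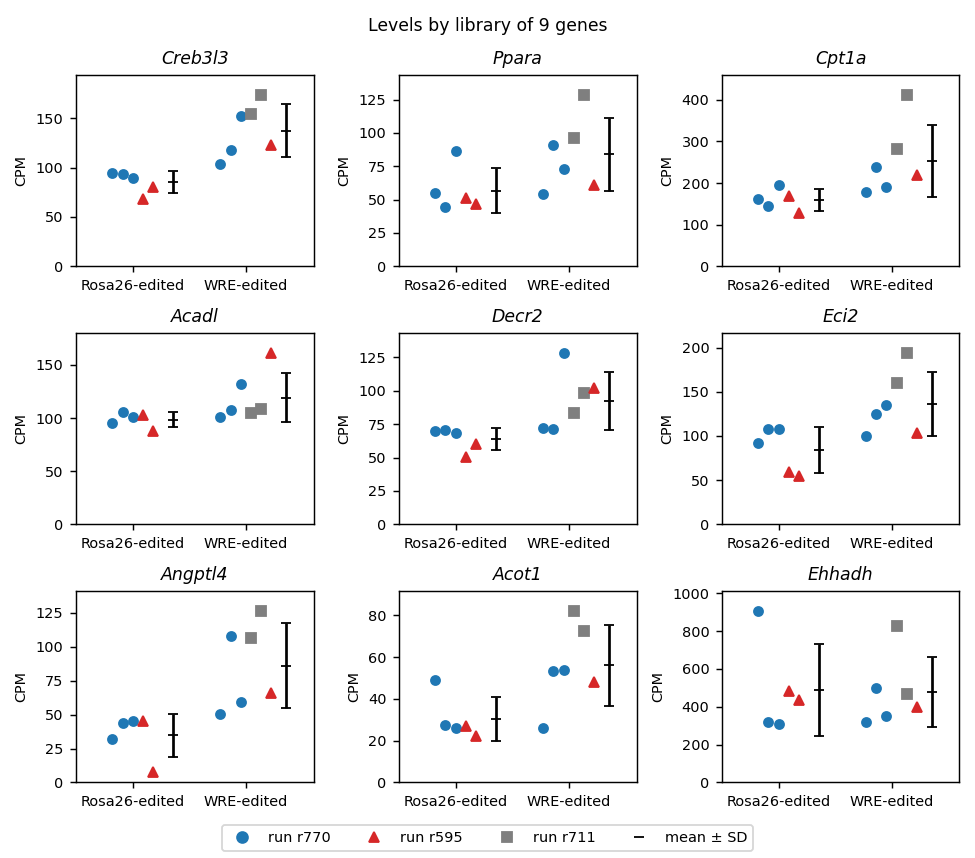
CPM of 9 of the genes in each library (vertical axes, from 0), with Rosa26-edited libraries on the left and WRE-edited libraries on the right, marker shape and colour showing the run, and the mean ± SD beside each group. For Creb3l3, Decr2 and Angptl4 every WRE-edited point lies above every Rosa26-edited point, and for Ehhadh the highest point is Rosa26-edited 1 at 905 CPM.

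The same repeat was looked for in RefSeq promoter windows (250 bases before to 50 after a start, both strands, up to 2 mismatches over the 12 compared bases, no other motif searched). A match was found for 6 of the 34 members with a window in this search (17.6%) and for 1190 of 27025 genes (4.4%). Besides Creb3l3 the genes were Acot4, Acox2, Echs1, Etfa and Plin2. Another 6 members, Acaa2 and Hsd17b4 among them, had no window in the search of the members. The windows of the members and those of all genes may not have been chosen alike, so these shares are no strict comparison. The contrast depends on the cutoff. With up to 1 mismatch the shares were 0% of the members and 0.644% of genes, and with up to 3 they were 35.3% and 27.3%. Plin2 is shown as the other gene with values in full above (RefSeq, GRCm38.p6, chr4:86670060-86670309, minus strand), with the match, which is on the opposite strand 225 to 213 bases before the start, in capitals:
Plin2 promoter: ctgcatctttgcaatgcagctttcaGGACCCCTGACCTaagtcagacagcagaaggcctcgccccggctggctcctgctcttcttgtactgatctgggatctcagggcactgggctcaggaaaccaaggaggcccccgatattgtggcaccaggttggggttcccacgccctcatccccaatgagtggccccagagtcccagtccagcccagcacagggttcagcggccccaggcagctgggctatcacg
This start of Plin2 is inside the gene (chr4:86626910-86670217). Written in the direction of the repeat, with matching bases in capitals and the spacer and mismatches in lower case, the 6 stretches were as follows.
Creb3l3: AGGggAgAGGTCA
Plin2: AGGTCAggGGTCc
Acot4: cGGcCAaAGGTCA
Acox2: AGGaCAgAGGTgA
Echs1: AGGTCAcgGGTCc
Etfa: AGGgCAaAGGTaA
In this order, their log2 fold changes were 0.52, 0.32, 0.31, 0.04, 0.22 and 0.10, so members with a match had values from 0.04 to 0.52. A match describes the letters of the window and is no measure of binding, and enhancers outside the windows were not searched.

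Per length, the most abundant of the 40 in Rosa26-edited libraries was Acaa2 at 214 ± 48.6 TPM (SD, n = 5), followed by Acadm at 135 ± 69.99, Ehhadh at 123 ± 53.1, Crot at 117 ± 26.3 and Plin2 at 112 ± 15.02. Among Acadm, Ehhadh, Crot and Plin2, neighbours in this order differed by less than the SD of either. In WRE-edited libraries Acadm had 126 ± 72.2 TPM (SD, n = 6), below its Rosa26-edited mean, although its log2 fold change from counts was 0.27. The reason was not tested. Creb3l3 stood at 30.7 ± 2.75 TPM, Cpt1a at 29.0 ± 7.52 and Ppara at 16.8 ± 6.08. At the low end were Acot2 at 3.11 ± 0.277 TPM and Fgf21 at 0.546 ± 0.286.

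The difference was larger within r595 than within r770 for most of the genes. The median over the 40 genes was 0.15 within r770, with 34 of 40 above 0 (50.5% of all genes), and 0.68 within r595, with 38 of 40 above 0 (53.1%). WRE-edited 6 lay above both Rosa26-edited libraries of r595 for 36 of the 40, beside 40.4% of all genes, while the 3 WRE-edited libraries of r770 lay above the 3 controls for 3 of the 40, beside 3.29%. A fit on r770 alone had 2 of the 40 at an unadjusted p under 0.05 in edgeR, Angptl4 and Creb3l3, beside 1.36% of all genes. By place in the pathway, the mitochondrial enzymes had medians of 0.06 within r770 and 0.76 within r595, the peroxisomal group 0.19 and 0.67, the thioesterases 0.23 and 0.81, and Ppara with Creb3l3 0.33 and 0.52. As an interaction of run and edit, edgeR called 0 of the 40 (0% of all genes) after adjustment and 6 at an unadjusted p under 0.05 (6.52%). All 6, Decr1, Eci1, Echs1, Hadhb, Hadha and Acadvl, had the higher value in r595, beside 2.15% of all genes in that direction, and all are mitochondrial β-oxidation enzymes. Hadha and Hadhb, neighbours 272 bases apart on chromosome 5 that encode the subunits of 1 protein, had 0.03 and 0.01 within r770 and 0.70 and 0.84 within r595. The controls differed between the runs as well. The mean of Rosa26-edited 4 and 5 was below that of Rosa26-edited 1 to 3 for all 11 mitochondrial enzymes, with a median difference of -0.72 on the log2 scale, against -0.37 over the 40 genes and 0.02 over all genes. The low share of mitochondrial ribosomal RNA in r595 goes with this run, and its part in the difference was not tested.

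**Figure D4:**
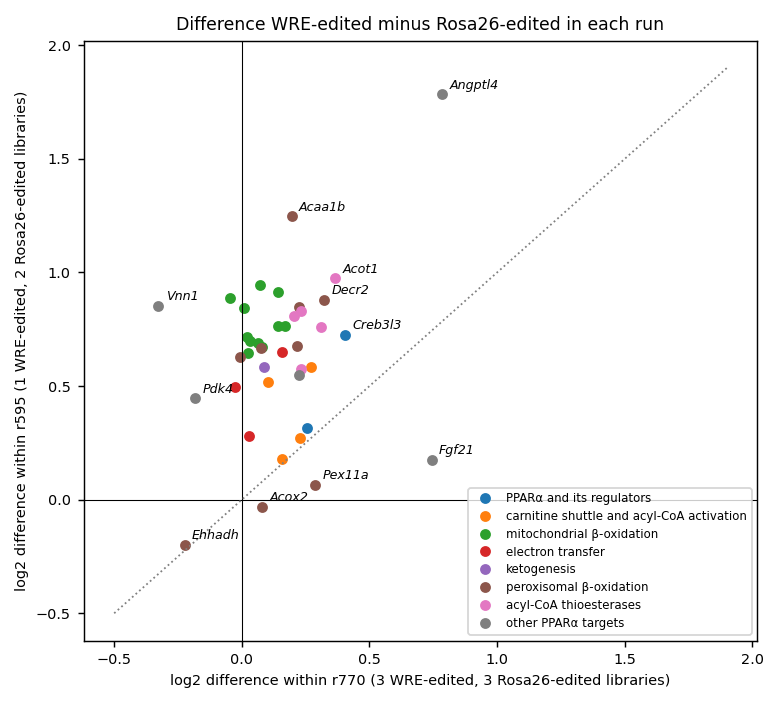
Log2 difference, WRE-edited minus Rosa26-edited, of each gene within r595 (vertical axis; 1 library against 2) against that within r770 (horizontal axis; 3 against 3), coloured by group, with the dotted line marking equal values. The mitochondrial β-oxidation genes form a column near 0 on the horizontal axis with a median of 0.06 and a median of 0.76 on the vertical axis.

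Within r770 the WRE-edited libraries were not alike. Compared with the mean of the run's controls, the median over the 40 genes was -0.09 in WRE-edited 1, with 10 of 40 above 0, 0.08 in WRE-edited 2, with 24 of 40, and 0.37 in WRE-edited 3, with 38 of 40. WRE-edited 6 had 0.68 against its own controls. For the mitochondrial enzymes the values were -0.13, -0.06, 0.37 and 0.76 in the same order. The controls of r770, which enter that mean, had medians over the 40 genes of -0.01, 0.06 and -0.04 in Rosa26-edited 1 to 3. Their counts above 0 were 19, 29 and 15 of 40, so WRE-edited 2 lay within the spread of the controls by count. Such counts were not made over all genes. The 2 libraries with the high values, WRE-edited 3 and 6, also had the highest sum of 13 pericentral markers, 25746 and 28529 CPM, against 17730 to 21976 CPM in the other 4 WRE-edited and 17566 to 20521 CPM in the Rosa26-edited libraries (12 of 13 with a fold change above 0, none of them at 0 in any library). They had the lowest sum of 10 stellate and fibroblast markers, 46.7 and 43.9 CPM, against 59.6 to 112.8 CPM in the other WRE-edited and 77.4 to 107.8 CPM in the Rosa26-edited libraries (0 of 9 tested with a fold change above 0, and 1 of the 10 at 0 in some library). The sum of 10 hepatocyte markers was lowest in WRE-edited 3 and 6 as well, at 49120 and 46991 CPM. It was 59744 to 63659 CPM in the other WRE-edited and 49699 to 62502 CPM in the Rosa26-edited libraries. Of these 10 markers 6 had a fold change above 0. Of 12 periportal markers 10 had a fold change below 0 (median -0.28, and -0.61 within r595; 1 higher and 0 lower at an unadjusted p under 0.05 in edgeR, none at 0 in any library). Their sums of 2638 and 2499 CPM in WRE-edited 3 and 6 compare with 2562 to 4891 CPM in the other WRE-edited and 2557 to 3795 CPM in the Rosa26-edited libraries, so these ranges overlap. Of the blood and immune cell lists, all 7 macrophage, 4 of 4 tested neutrophil and 4 of 4 tested lymphocyte markers had a fold change below 0 (medians -0.44, -0.88 and -0.51), with 0 at an unadjusted p under 0.05. Macrophage markers summed to 185.6 to 289 CPM in WRE-edited and 180.5 to 703 CPM in Rosa26-edited libraries, the highest being Rosa26-edited 5. Neutrophil markers summed to 3.20 to 6.02 and 2.82 to 19.7 CPM, and lymphocyte markers to 15.2 to 27.6 and 17.9 to 44.5 CPM, with 3 markers of each at 0 in some library. Of 5 erythroid markers 4 were below 0 (median -1.66, with 3 lower and 1 higher at an unadjusted p under 0.05), with sums of 8.35 to 11.4 CPM in WRE-edited and 7.82 to 32.0 CPM in Rosa26-edited libraries, the highest being Rosa26-edited 2, and 1 marker at 0 in some library. The part of any of these markers in the result was not tested. Without WRE-edited 3 and 6 the median over the 40 genes was 0.02, with 20 of 40 above 0 and 0 at an unadjusted p under 0.05, beside 1.4% of all genes. The mitochondrial enzymes then had a median of -0.09 with 1 of 11 above 0, while Ppara with Creb3l3 had 0.24 and the carnitine and activation genes 0.20. This comparison rests on WRE-edited 1 and 2 against the controls of r770. The libraries left out were those with the high values, so leaving them out lowers these medians by construction.

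WRE-edited 4 and 5, which have no control in their run, showed another selection of the genes at high levels. Both lay above the other 9 libraries for 13 of the 40 genes, beside 4.68% of all genes, and above every Rosa26-edited library for 19, beside 7.61%. The 13 were Ppara and Creb3l3, Cpt1a, Cpt2 and Crat of the carnitine and activation genes, Acot1 to Acot4, the peroxisomal Eci2 and Pex11a, and Plin2 and Fgf21. None of the 11 mitochondrial enzymes was among them. These libraries do not enter the fold changes, and edit and run cannot be told apart in them. Of the 40 genes, 13 had their highest level in WRE-edited 3, 12 in WRE-edited 5, 7 in WRE-edited 4, 6 in WRE-edited 6 and 1 each in Rosa26-edited 1 and 2. The lowest level was in Rosa26-edited 4 for 17 and in Rosa26-edited 5 for 12. Highest and lowest libraries were not counted over all genes, so these numbers do not show a trait particular to the 40.

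Other genes of the pathway, 107 in 5 lists, gave 104 tested genes with a median log2 fold change of 0.14, 77 of them above 0 (51.7% of all genes). In edgeR 0 passed after adjustment, 18 were higher and 3 lower at an unadjusted p under 0.05, beside 4.95% and 5.14% of all genes, and DESeq2 called 0. The counts by list that follow are at the same threshold and read against the same shares. The list of further PPARα targets had the most, with 8 of 21 higher and 0 lower and a median of 0.34. Its smallest p-values belonged to the ω-hydroxylase genes Cyp4a14 (2.75 ± 0.77) and Cyp4a32 (1.258 ± 0.40) and to the retinol saturase gene Retsat (1.01 ± 0.33). Cyp4a14 stood at 11.3, 123, 150.2, 149, 115 and 166 CPM in WRE-edited 1 to 6 and at 39.4, 12.02, 7.78, 7.92 and 16.6 CPM in Rosa26-edited 1 to 5, so that WRE-edited 1 alone was inside the Rosa26-edited range. The Cyp4a genes are close copies of each other, so their reads may have been divided between them. Of 24 further mitochondrial genes 4 were higher and 0 lower, led by Mlycd (0.37 ± 0.14), which breaks down malonyl-CoA. Of 31 further peroxisomal genes 3 were higher and 2 lower, led by the lipid-binding Acbd5 (-0.52 ± 0.18). Of 21 regulators 1 was higher and 0 lower, the PPARα partner Rxra (0.50 ± 0.19), a share near that of all genes.

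**Figure D5:**
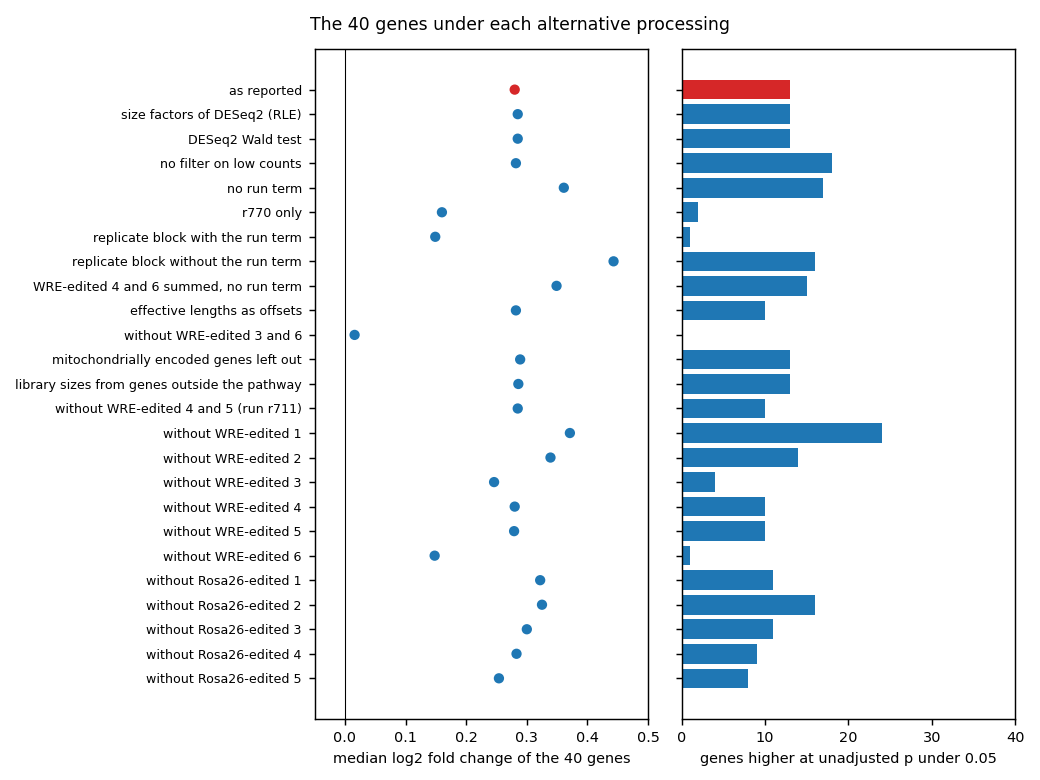
The 40 genes as reported and under each of 24 alternative analyses (vertical axis), with their median log2 fold change on the left and the number higher at an unadjusted p under 0.05 on the right. The median is 0.28 as reported, stays above 0 in all 24 and is lowest, at 0.02, without WRE-edited 3 and 6, where the number is 0.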

How the data were processed

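The authors deposited 1 table per library with RSEM's expected counts for each Ensembl gene; STAR 2.7.6a, RSEM 1.3.1 and GRCm38 are named in the submitters' processing notes. TPM, used here for levels between genes, stand in the same deposited tables, as do other values (effective lengths), per the file headers. Strand and annotation version were not given in the sources used here. Expected counts were rounded, filtered with filterByExpr by group (minimum count 10, minimum total 15) and scaled with TMM. They were tested with edgeR 4.0.16 in R 4.3.3 (robust quasi-likelihood, run and group as terms, 7 residual degrees of freedom, two-sided, Benjamini-Hochberg over 14393 genes, threshold 0.05), after the code was tested on simulated data. DESeq2 1.42.0 was 1 of 24 alternatives. Differences within a run are between means of log2 CPM (prior count 2). WRE-edited 4 and 5 add to the spread alone. Values in every library are given for members at an unadjusted p under 0.05 in edgeR, for 12 members chosen by name, and for the 2 highest and 2 lowest fold changes, while pathway genes are named if among the 3 smallest p-values of their list. Promoters came from RefSeq (GRCm38.p6). Members and gene lists were chosen with earlier results of these data known. No pair of libraries of a group agreed within counting noise. Single genes of the further ketone body list are not reported here.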

Additional observations from a re-analysis of the deposited data

Results flagged for a closer look

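Of 80 sets of values, 1 for each of the 40 genes in each group, 8 had a library whose gap to the nearest other library was large for the range of the group by Dixon's criterion, which chance meets in about 1 in 20. That rate is for values of 1 kind, and each group pools runs that differ, so it may not hold here. Levels here are log2 CPM unless CPM is written. In the WRE-edited group, WRE-edited 3 was high for Eci1 (6.40, others 5.68 to 5.86) and for Acaa2 (9.57, others 8.91 to 9.12). WRE-edited 1 was low for Acaa1a (6.58, others 7.01 to 7.26) and WRE-edited 6 was low for Etfa (5.79, others 6.36 to 6.69). For Etfa the controls of its run were low too, with Rosa26-edited 4 and 5 at 45.1 and 45.6 CPM against 55.1 CPM in WRE-edited 6. In the Rosa26-edited group, Rosa26-edited 5 was high for Acox2 (7.21, others 6.74 to 6.84) and low for Angptl4 (3.01, others 5.02 to 5.50). Rosa26-edited 1 was high for Acot1 (5.61, others 4.48 to 4.80). Rosa26-edited 3 was low for Fgf21 (-2.22, others -0.52 to -0.12), a level that rests on 4 counts.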

How the results depend on the processing

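The 40 genes had a median log2 fold change above 0 in all 24 alternatives, and edgeR called 0 of them in all but the fit without a filter on low counts. That fit called 450 genes in all and 3 of the 40 higher (Acot1, Angptl4 and Decr2, beside 0.476% of all genes), with 18 higher (3.47% of all genes) and 1 lower at an unadjusted p under 0.05, and the cause was not tested. DESeq2 called 83 genes in all and 1 of the 40. Over all genes, the 1 call became 0 without the run term, in r770 alone, without WRE-edited 3 and 6, and without WRE-edited 4 and 5, an alternative chosen after seeing the data. Leaving out 1 library in turn gave 0 to 2 calls over all genes, 1 to 24 of the 40 higher at an unadjusted p under 0.05 and medians of 0.148 to 0.371. With r770 alone 2 of the 40 were higher, and without WRE-edited 3 and 6 there were 0, with a median of 0.016. WRE-edited 3 and 6 had the highest medians against their own controls, so leaving them out lowers the median by construction. The replicate numbers do not pair the libraries (correlations of same-numbered libraries -0.090 to 0.178, and no library correlated best with its own number). With a replicate block and the run term 2 genes were called over all genes and 1 of the 40 was higher at an unadjusted p under 0.05, near the 1.31% of all genes (median 0.149). With the block and no run term 16 were higher (median 0.443), beside 1.85% of all genes. Of 504 results for 21 named genes, 478 kept direction and side of the threshold, 4 passed it and 22 changed sign, and 14 genes never changed sign. Without WRE-edited 3 and 6, Acaa2 had -0.074, Acadm -0.010, Acads -0.040, Bdh1 -0.116 and Vnn1 -0.602. Vnn1 had -0.261 in r770 alone and -0.321 with the block and run term. Ehhadh had 0.065 with the block and no run term. Pdk4 had 0.002 with DESeq2's size factors, with DESeq2 and with library sizes from other genes, 0.003 with effective lengths, 0.004 without mitochondrially encoded genes and 0.001 without WRE-edited 4 and 5. With 1 library left out, Ehhadh ranged from -0.481 to 0.138, Pdk4 from -0.211 to 0.207 and Vnn1 from -0.274 to 0.290. Fgf21 had 4 to 81 counts per library, and the parts of depth and of spread between libraries in its error were not told apart. Fewer libraries, or fewer genes tested, change these counts by construction, and no other cause was tested.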
